A study of Homo sapiens with 4 samples.

Results

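Neurotensin, its receptors and the sortilin family are 8 genes: the peptide gene NTS, the receptor genes NTSR1 and NTSR2, and the VPS10P-domain receptor genes SORT1, SORL1, SORCS1, SORCS2 and SORCS3. Members were the probe sets whose only platform gene symbol was one of these names, which gave 10 of the 54675 probe sets and 7 of the 19775 named genes. SORT1 was given no probe set of its own by the platform annotation used here and was not analysed here.

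The samples were CD133+ cells and CD133- cells, both sorted by flow cytometry from Huh7, an established human hepatocellular carcinoma line. No treatment, genotype or time separated them, and CD133 is the surface protein encoded by PROM1. Each population has 1 entry of RMA values (log2) and 1 of MAS5 values (linear signal). Both entries were taken as 1 array per population, since they differ only in the algorithm named, but the labels do not say that they share a hybridization. With 1 entry per population on each scale, neither a replicate error nor a test is possible, and all differences below are CD133+ minus CD133- values of these arrays.

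Neurotensin is a short secreted peptide of intestinal endocrine cells and brain neurons, cut from a precursor that also yields neuromedin N. It acts mainly through NTSR1, a receptor coupled to Gq proteins that raises intracellular calcium and activates protein kinase C and the ERK cascade, while NTSR2 binds it with lower affinity. Sortilin binds neurotensin through its VPS10P domain and sorts proteins between the Golgi, the cell surface and endosomes, as do its relatives SORL1 and SORCS1 to SORCS3. Adult liver normally makes little neurotensin, whereas fetal liver and fibrolamellar liver tumours are known to make it.

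The sort and the tissue label were checked first. PROM1 had RMA values of 10.49 in CD133+ cells and 5.33 in CD133- cells. The 10 hepatocyte markers with a probe set, among them ALB, APOA1 and AFP, were all brighter than the floor on both arrays, with differences from -0.50 to 0.55. The floor is an RMA value of 4.86, the median over probe sets of the brighter of both values, and is a rule of brightness rather than a detection call. Of the blood cell markers PTPRC lay below the floor in both populations and the 4 above it differed by -0.25 to 0.00. The brightest of these was LYZ, with an RMA value of 11.11 in both populations, while CD14, CD3E and HBB lay nearer the floor. Of the 7 endothelial and stromal markers 3 lay above the floor, with differences of 0.02 to 0.23. The brightest was COL1A1, with RMA values of 7.68 in CD133+ cells and 7.64 in CD133- cells, while PECAM1 and VWF lay nearer the floor. The ratio of 3' to 5' control signal was 1.15 in CD133+ cells and 1.24 in CD133- cells for actin by MAS5. For GAPDH it was 0.95 in CD133+ cells and 1.01 in CD133- cells.

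By RMA and by MAS5, NTS was the only member above the floor of the scale to differ at least 2-fold. Its probe set had an RMA value of 10.12 in CD133+ cells and 7.91 in CD133- cells, a difference of 2.21 or 4.63-fold. The MAS5 signal was 5557 in CD133+ cells and 1058 in CD133- cells, a 5.25-fold difference. Both values lay above the floor in both algorithms. In sorted bulk populations, fewer cells with the transcript and less transcript per cell cannot be told apart.

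For scale, the population difference varied between probe sets of 1 gene with an SD of 0.21 on the log2 scale, estimated from 42459 pairs. Where both probe sets lay above the floor the SD was 0.17. The SD is that of a single probe set's difference, not of the gap between a pair. That spread was taken within the same arrays and leaves out variation between sorts and cultures. Its sources were not tested. NTS is measured by a single probe set, so no other probe set of the gene could be set beside it. Among the 12899 genes above the floor, NTS had rank 32 by RMA difference, between the intestinal cadherin gene CDH17 (2.21) and the chloride exchanger gene SLC26A3 (2.19). Counting only the 12392 genes above the floor in both populations, its rank was 19. By MAS5 its rank was 106 of 12251 genes above the MAS5 floor of 91.8. In all, 25 genes, NTS included, were at least as high as NTS in both differences.

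**Figure D1:**
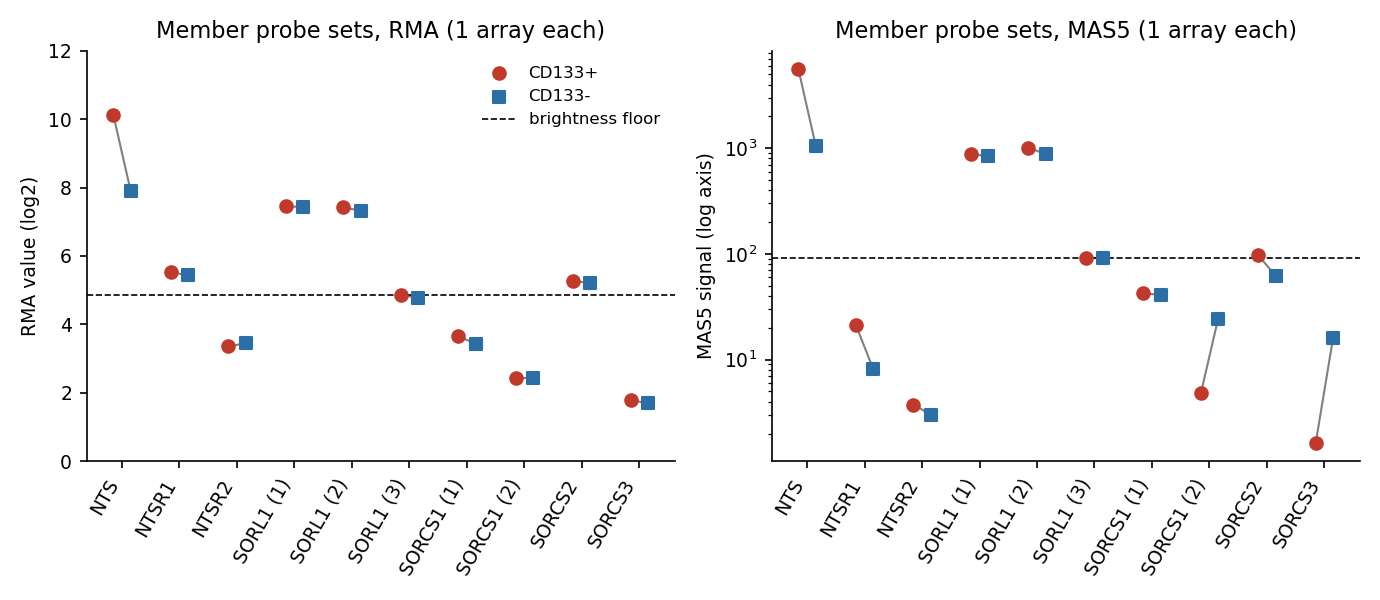
RMA values (left, log2) and MAS5 signals (right, log axis) of the 10 member probe sets in CD133+ (circles) and CD133- (squares) cells, 1 array each, with the brightness floor dashed and probe sets of 1 gene numbered from the brightest. By RMA, NTS is 10.12 in CD133+ cells against 7.91 in CD133- cells, while the other 9 pairs of points nearly coincide.

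The 250 bases upstream of the NTS start are shown because NTS is the member on which the result turns. They lie at chr12:85874045-85874294 on the plus strand of GRCh38.p14 and were taken from RefSeq. Capitals mark matches to the motifs described next.

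NTS upstream: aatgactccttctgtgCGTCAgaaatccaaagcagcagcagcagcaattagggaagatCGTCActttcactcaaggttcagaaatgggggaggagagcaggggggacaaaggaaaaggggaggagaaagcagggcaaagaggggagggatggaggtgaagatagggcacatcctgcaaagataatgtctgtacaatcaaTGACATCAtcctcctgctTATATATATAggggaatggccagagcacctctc

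In the rat gene, AP-1, cAMP response and glucocorticoid response elements near the start are known to govern neurotensin transcription. The glucocorticoid response element was not searched for here. Searched on both strands, the human upstream bases held no AP-1 site of the letters TGANTCA and no cAMP response element TGACGTCA. They held the variant TGACATCA from 51 to 44 bases before the start. The half-element TGACG, which also lies inside TGACGTCA, matched on the minus strand at 234 to 230 and at 192 to 188 bases before the start. A TATA repeat, in which TATATA matched 3 overlapping times, spanned 33 to 24 bases before the start. Across the 27305 upstream regions of the same length in the RefSeq table, TGANTCA occurred in 6.60%, TGACGTCA in 1.77%, TGACATCA in 2.45%, TGACG in 21.7% and TATATA in 3.96%. TGACATCA and TATATA were searched for after the sequence had been read. Among the 7 members in that table, SORT1 included and SORCS2 not used here, NTS was the one with TGACATCA and TATATA, and SORL1 shared TGACG with it. The share of G and C was 49.2% upstream of NTS, against 82.0% for NTSR1, 58.4% for NTSR2, 80.4% for SORL1, 82.4% for SORCS1, 66.0% for SORCS3 and 74.0% for SORT1. A match describes these letters and is not evidence of a bound factor.

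Neither receptor gene, NTSR1 or NTSR2, showed a difference of the size seen for the peptide by RMA. NTSR1 had RMA values of 5.53 in CD133+ cells and 5.43 in CD133- cells, a difference of 0.10. Its MAS5 signals, 21.2 in CD133+ cells and 8.16 in CD133- cells, gave a 2.59-fold difference but lay below the MAS5 floor in both populations. Among the 27338 probe sets with both MAS5 signals below that floor, 43.0% differed at least 2-fold, so a ratio of this size is common at such signals. The NTSR1 probe set is also of a kind that can match several transcripts.

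NTSR2 lay below the floor in both algorithms, with RMA values of 3.36 in CD133+ cells and 3.45 in CD133- cells. Its MAS5 signals were 3.76 in CD133+ cells and 3.02 in CD133- cells. NTSR1 thus lay above the floor by RMA alone, and NTSR2 on neither scale.

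SORL1, the sorting receptor also known as SORLA or LR11 that routes the amyloid precursor protein and lipoprotein lipase, was the best measured VPS10P receptor, with 3 probe sets. The brightest had RMA values of 7.45 in CD133+ cells and 7.43 in CD133- cells. The second had 7.42 in CD133+ cells and 7.32 in CD133- cells. Both differences, 0.01 and 0.10, were within the spread between probe sets of 1 gene. The third lay at the floor, with 4.87 in CD133+ cells and 4.77 in CD133- cells. By MAS5 the SORL1 differences were 0.04, 0.20 and -0.02, with signals of 872, 1009 and 90.9 in CD133+ cells and 848, 881 and 92.2 in CD133- cells.

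SORCS2, a receptor that binds the neurotrophin precursors in neurons, had RMA values of 5.27 in CD133+ cells and 5.21 in CD133- cells, a difference of 0.07. Its MAS5 signal was 96.8 in CD133+ cells, just over the floor of 91.8, and 62.2 in CD133- cells, a 1.56-fold difference. SORCS2 thus lay near the floor on both scales, and the algorithms gave it differences of unlike size.

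SORCS1 and SORCS3, relatives expressed mainly in the nervous system, lay below the floor throughout. The brighter SORCS1 probe set had RMA values of 3.65 in CD133+ cells and 3.44 in CD133- cells, and MAS5 signals of 42.6 in CD133+ cells and 40.7 in CD133- cells. The other SORCS1 probe set had the same RMA value of 2.44 in both populations, while its MAS5 signals were 4.79 in CD133+ cells and 24.2 in CD133- cells. SORCS3 had RMA values of 1.79 in CD133+ cells and 1.69 in CD133- cells, and MAS5 signals of 1.64 in CD133+ cells and 15.9 in CD133- cells. By MAS5 these last SORCS1 and SORCS3 probe sets were thus 5.06-fold and 9.70-fold lower in CD133+ cells, where RMA showed equal values and a difference of 0.09. No direction is drawn from either.

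**Figure D2:**
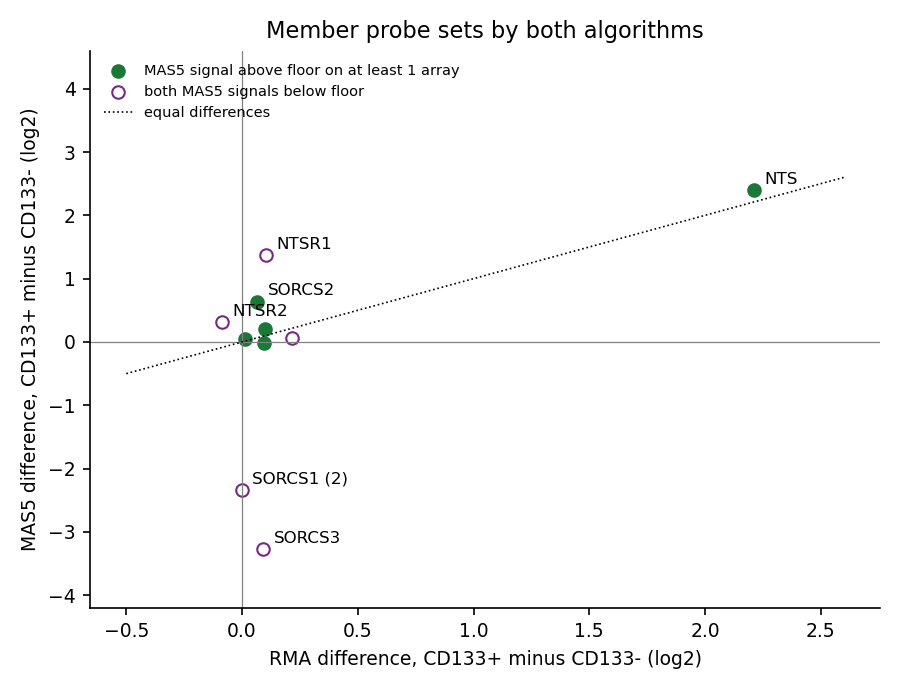
Difference CD133+ minus CD133- of each member probe set by RMA (x axis, log2) and by MAS5 (y axis, log2), with filled points above the MAS5 floor on at least 1 array. NTS lies near the line of equal differences (2.21 and 2.39), and the probe sets with both signals below the floor spread from -3.28 to 1.38 by MAS5 but from -0.09 to 0.22 by RMA.

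Of the 7 members with a probe set, 4 lay above the floor by RMA (NTS, NTSR1, SORL1 and SORCS2), and 1 of these was at least 2-fold higher and 0 at least 2-fold lower. Across all 12899 genes above the floor, 1.65% were at least 2-fold higher and 0.116% at least 2-fold lower. By MAS5, NTS was again the 1 member at 2-fold among the members above the MAS5 floor, where 4.47% of genes were at least 2-fold higher and 1.71% lower. Without NTS the other 6 genes had a median difference of 0.08 and a range of -0.09 to 0.22, against a median of 0.00 over all named genes. Of the 9 probe sets other than that of NTS, 8 differed by less than the spread of 0.21 between probe sets of 1 gene. The brighter SORCS1 probe set differed by 0.22. Over the whole array, 70.5% of probe sets had a smaller absolute difference than this SORCS1 probe set, so such small differences are not particular to the members.

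**Figure D3:**
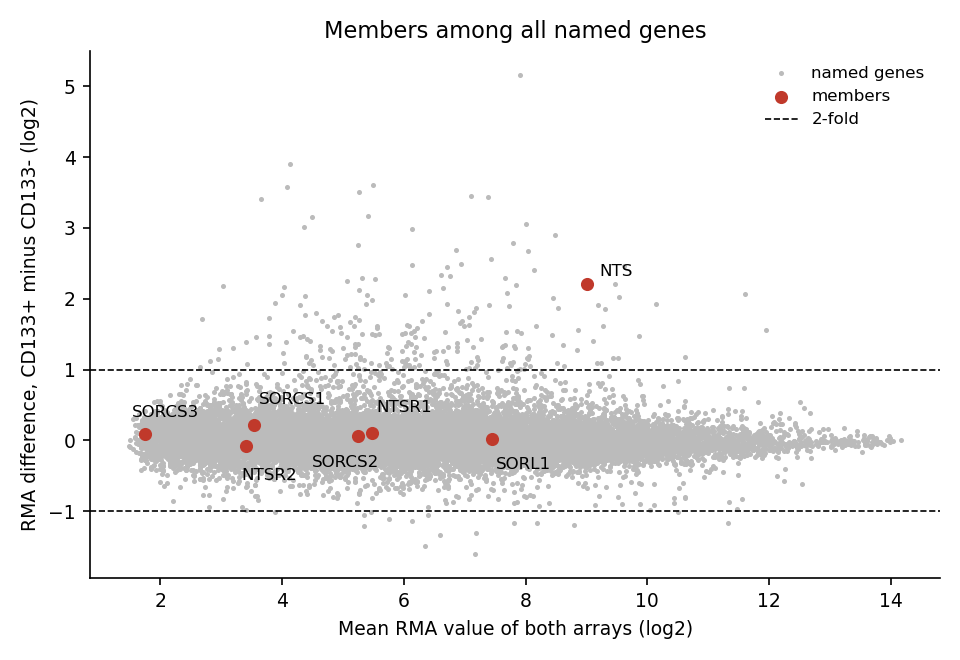
RMA difference CD133+ minus CD133- (y axis, log2) against the mean RMA value (x axis, log2) of all 19775 named genes in grey, with the 7 members in red and 2-fold dashed. NTS (2.21) lies above the 2-fold line, and the other members lie between -0.09 and 0.22.

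Genes that act on the peptide were examined as lists. Among genes of precursor processing, all 8 with a probe set lay above the floor, with 5 higher and 3 lower and a median of 0.12, against -0.01 over all genes above the floor. PCSK5, a convertase known to cleave the neurotensin precursor, had RMA values of 7.25 in CD133+ cells and 6.18 in CD133- cells, a difference of 1.08. This probe set is of the kind that can match several transcripts. The other probe sets of PCSK5 are not, and differed by 0.59 on the brighter and 1.11 on the dimmer one. The dimmer one lay below the floor in CD133- cells. Averaged over probe sets, or by the brighter unshared one, PCSK5 no longer reached 2-fold. The carboxypeptidase gene CPE, which trims the basic residues that convertases leave, was higher by 0.74 and 0.64 on its probe sets. SCG5, the chaperone of the convertase PC2, was lower by 0.81, with RMA values of 4.50 in CD133+ cells, below the floor, and 5.31 in CD133- cells. PCSK1 and PCSK2, the convertases of endocrine granules, had no probe set of their own in the annotation used here.

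None of the listed peptidases reached 2-fold, against 1.65% higher and 0.116% lower over all genes above the floor. All 4 above the floor had lower RMA values in CD133+ cells, with a median of -0.19, as had 51.1% of all genes above the floor. They were the neurotensin-cleaving enzymes THOP1 (-0.29), NLN (-0.09) and PREP (-0.08), and CPB2 (-0.42), a plasma carboxypeptidase not known to cleave neurotensin. These NLN and PREP differences, of the brightest probe sets, were within the spread between probe sets of 1 gene. All NLN probe sets ranged from -0.45 to -0.09, and those of PREP from -0.25 to 0.04. MME and ACE, neprilysin and angiotensin-converting enzyme, lay below the floor in both populations.

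No other listed gut peptide or secretory granule gene above the floor reached 2-fold by RMA. Over all genes above the floor, 1.65% were at least 2-fold higher and 0.116% at least 2-fold lower. Of 14 gut and neuroendocrine peptide genes with a probe set, 2 lay above the floor: ADM, adrenomedullin, at 0.40, and PYY, peptide YY, at -0.41. The PYY direction turned by MAS5, with signals of 149.8 in CD133+ cells and 118.8 in CD133- cells. GCG, CCK, SST, GHRL and GIP lay below it in both populations. Of the 8 granule genes, 3 lay above the floor and 0 reached 2-fold: the granin gene CHGB at -0.49, VGF at -0.19 and the synaptotagmin gene SYT7 at 0.38. By MAS5, VGF was lower by 1.48, with signals of 58.3 in CD133+ cells and 162 in CD133- cells. Of the 5 endocrine cell markers with a probe set, CHGA, SYP and INSM1 were below the floor in both populations. CHGB lay above it, with RMA values of 6.57 in CD133+ cells and 7.06 in CD133- cells, as did DDC, which differed by 0.15.

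Most listed signalling genes downstream of NTSR1 differed little, as did most probe sets above the floor (median absolute difference 0.13). Of 15 listed genes above the floor, 9 were higher and 6 lower, and the median was 0.04. None reached 2-fold, against 1.65% higher and 0.116% lower over all genes above the floor. Such a count is therefore not particular to these genes. The Gq gene GNAQ differed by 0.07, its relative GNA11 by 0.12 and the phospholipase gene PLCB1 by -0.01. PRKCE, protein kinase C epsilon, had the highest difference, 0.77, although its probe sets ranged from -0.08 to 0.77. EGFR, which neurotensin is known to transactivate in several tumour lines, was higher by 0.57 with probe sets from -0.12 to 0.78. PLCB3 was lowest by RMA at -0.22 but differed by 0.03 by MAS5, while ARRB1, a beta-arrestin gene, differed by -0.21 by RMA and -0.82 by MAS5.

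Most partners of the VPS10P receptors had small differences too, which is not particular to them. Over all probe sets with the brighter value above the floor, the median absolute difference was 0.13. Of 15 sorting adaptor and retromer genes, which carry these receptors between endosomes and Golgi, all lay above the floor, 7 were higher and 8 lower, and the median was -0.04. The extremes were the sorting protein gene PACS1 at 0.35 and the retromer gene VPS26B at -0.18. Ligands and co-receptors had 8 genes above the floor, with 4 higher and 4 lower and a median of 0.02. APP, the amyloid precursor protein bound by SORL1, differed by 0.44, with probe sets from -0.11 to 0.44. GRN, the sortilin ligand progranulin, differed by 0.11 and APOB by -0.25. APOB had RMA values of 12.56 in CD133+ cells and 12.81 in CD133- cells.

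Transcription factors of the AP-1, CREB and glucocorticoid receptor kind, listed with the intestinal factor CDX2, had 10 members above the floor. Of these, 7 were higher and 3 lower, with a median of 0.05. None was at 2-fold, against 1.65% higher and 0.116% lower over all genes above the floor. CDX2 was higher by 0.69 on its brighter probe set and differed by -0.10 on the other. FOSL2 differed by 0.54, FOS by 0.39, JUN by 0.06, CREB1 by -0.05 and NR3C1, the glucocorticoid receptor, by -0.19. Probe sets of FOSL2 ranged from 0.21 to 0.94 and those of JUN from -0.10 to 0.66. For CREB1 they ranged from -0.22 to 0.09 and for NR3C1 from -0.22 to 0.07. CXCL8 and CXCL1, the chemokines the study linked to neurotensin on these samples, were higher by 1.63 and 1.16, while CXCR1 differed by 0.08 and CXCR2 lay below the floor.

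**Figure D4:**
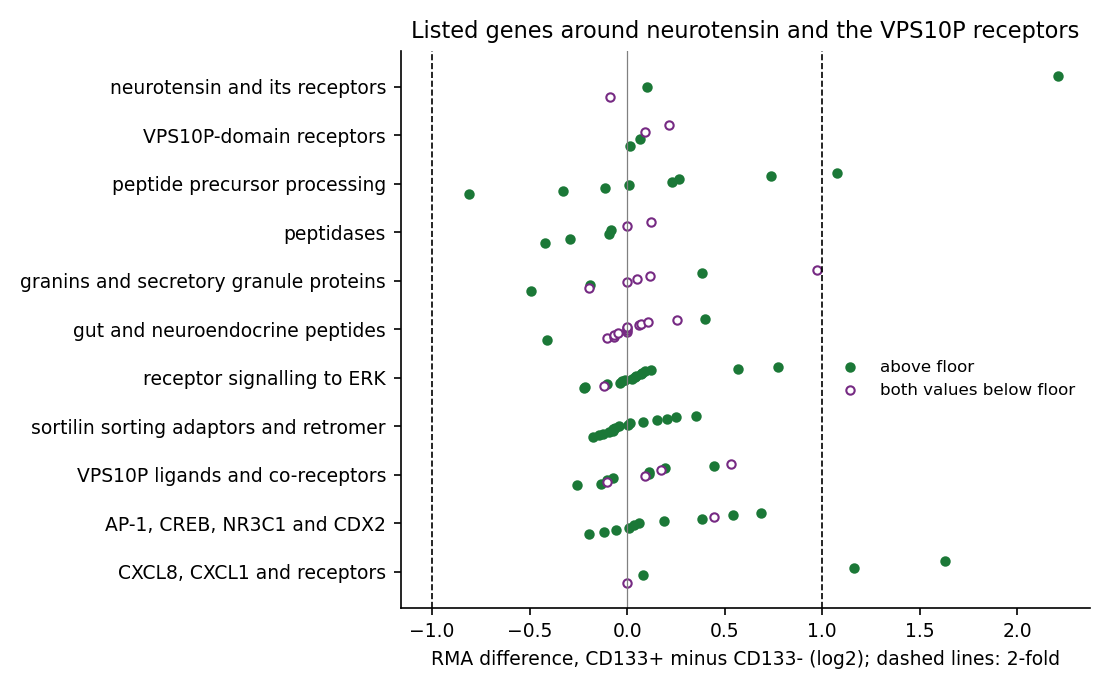
RMA difference CD133+ minus CD133- (x axis, log2) of each listed gene, 1 row per list, with filled points above the brightness floor and open points below it on both arrays, and 2-fold dashed. NTS, PCSK5, CXCL8 and CXCL1 lie past the 2-fold line, and none of the listed genes lies past it on the lower side. Over all genes above the floor, 1.65% were at least 2-fold higher and 0.116% at least 2-fold lower.

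The 5 genes nearest to NTS by the distance between their pairs of RMA values over both arrays were UCA1, TFF1, GUCY2C, GOLM1 and GPX2. UCA1, a long non-coding RNA, had 10.16 in CD133+ cells and 8.24 in CD133- cells, at a distance of 0.34. TFF1, a trefoil peptide of the gastric mucosa, had 10.23 in CD133+ cells and 8.38 in CD133- cells. GUCY2C, the intestinal guanylin receptor, had 9.63 in CD133+ cells and 8.08 in CD133- cells. GOLM1, a Golgi membrane protein, was 3.06-fold higher and GPX2, a glutathione peroxidase of gut epithelium, 2.63-fold higher, at a distance of 0.59. Likeness over 2 arrays is a likeness of values only, since probe sets differ in how brightly they report a transcript.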

How the data were processed

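Huh7 CD133+ and CD133- populations each have 1 MAS5 and 1 RMA entry, taken as 1 array. Per the labels' protocols, Trizol was used to extract total RNA, and biotin was the label. The authors deposited MAS5 signal intensity on a linear scale, with MAS5 and GCOS named in the submitters' processing notes, and RMA values on a log2 scale, per the labels. The trimmed mean MAS5 signal, with 2% left off each end, was 499.9 on both arrays, so a common scaling was applied. Software versions and the set of arrays that RMA normalized jointly were not given in the sources used here. MAS5 and RMA entries were assumed to summarize the same arrays, which the labels do not state, and were never treated as replicates.

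Symbols came from the platform annotation (41097 probe sets with 1 symbol, 1801 with several, 11777 with none), updated through Entrez numbers to GRCh38.p14 for 41043. Each gene took the value of the probe set brightest by mean RMA, and members were also described by every probe set. Differences and counts were computed in Python 3.11.15 with pandas 2.3.3 and tested on simulated data. No test between populations was possible, and the number of arrays limits the precision. Names in the text are all members, list members at 2-fold or the extremes of a list without one, the 5 genes nearest to NTS, PROM1, and members described for their role. CDH17 and SLC26A3 were named after their values were seen, as neighbours of NTS in rank. The members, 16 gene lists and settings were chosen with earlier results of these data known. Alternatives were MAS5, the mean over probe sets, no shared probe sets, median centring, other floors and 1.5-fold.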

Additional observations from a re-analysis of the deposited data

How the results depend on the processing

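NTS kept its direction and stayed past 2-fold by MAS5 (2.39). It was 2.21 with the mean over probe sets, without probe sets that can match several transcripts and after centring. These settings could not change it, since NTS has 1 probe set, not of the shared kind, and the median difference was 0. The count of members at least 2-fold higher stayed at 1, and lower at 0, under all 7 alternatives. The counts over all genes moved: by MAS5, 548 were higher and 209 lower, a 1.5-fold limit gave 474 and 130, and a floor at the 75th percentile gave 117 higher, against 213 higher and 15 lower in the settings reported. Among other members, MAS5 moved NTSR1 to 1.38, NTSR2 to 0.32, SORCS2 to 0.64 and SORCS3 to -3.28, each with at least 1 signal below the MAS5 floor; the cause was not tested. Without the shared probe sets NTSR1 and PROM1 had no value, nor had listed genes such as CXCL8, CPE, CPB2, VGF and PLCB3. PCSK5 was under 2-fold when its probe sets were averaged or when shared ones were left out. In the latter case the brighter unshared probe set (0.59) stood for it, while the dimmer one differed by 1.11. No array was repeated, so no replicate could be left out, and values near or below the floor limit NTSR1, NTSR2 and the SORCS genes.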

Other observations

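RMA differences of dim probe sets took recurring values. Over the whole array, 4210 probe sets (7.70%) had exactly equal RMA values in CD133+ and CD133- cells, 77.2% of them below the brightness floor. Absolute differences rounded to 4 decimals took 5769 distinct values over 54675 probe sets. A value shared by at least 20 probe sets was held by 74.5% of probe sets below the floor and by 33.5% of those above it, and the most frequent one other than 0, 0.099, by 504. The NTSR1 difference of 0.10 was shared by 394 other probe sets, that of SORCS3 (0.09) by 375 and that of NTSR2 (-0.09 as signed) by 137. One SORCS1 probe set was among those with equal values. The NTS difference was shared by no other probe set (0), that of SORCS2 by 8, and those of SORL1 by 15, 14 and 51. The origin of the recurring values was not tested.

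The algorithms spread dim probe sets very differently. With both values below the floor of its own scale, the median absolute log2 difference was 0.12 by RMA and 0.81 by MAS5, and 0.219% of probe sets by RMA and 43.0% by MAS5 differed at least 2-fold. With the brighter value above the floor, the medians were 0.13 by RMA and 0.24 by MAS5.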
